A study of Homo sapiens with 6 samples.

Results

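The death receptor and TRAIL signalling genes described here are 10 genes chosen by symbol: the TRAIL receptor genes TNFRSF10A, TNFRSF10B, TNFRSF10C and TNFRSF10D, the receptor genes FAS, TNFRSF1A and TNFRSF12A, the ligand gene TNFSF10, and CASP8 and CFLAR, whose products act just inside the receptor. All 10 were found among the 20388 gene symbols of the expression table. RNA was sequenced from MHCC-97H cells, a human liver cancer line (hepatocellular carcinoma) labelled as wild type, in 3 libraries from cells given 2 µM GK921 for 24 h and 3 libraries from cells given the solvent DMSO for the same time. GK921 is an inhibitor of transglutaminase 2, a protein cross-linking enzyme that also couples serotonin to histone H3. From the series title, the study concerned histone serotonylation by this enzyme and the MYC pathway, and the comparison asks which RNA levels differed in inhibitor-treated cells. All libraries are of 1 cell line. Nothing says whether each library had its own culture, so the p-values cover only library-to-library spread, possibly technical.

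TRAIL, the product of TNFSF10, is a ligand of the tumour necrosis factor superfamily. It binds the receptors encoded by TNFRSF10A (DR4) and TNFRSF10B (DR5), whose cytoplasmic death domains recruit the adaptor FADD and the initiator caspase encoded by CASP8. Cleaved caspase-8 then activates executioner caspases directly or through BID and mitochondria, while the CFLAR product c-FLIP, a relative of caspase-8 without protease activity, competes for the same complex. The decoy receptors encoded by TNFRSF10C and TNFRSF10D bind TRAIL without a working death domain. Hepatocytes are known for sensitivity to death signals from FAS, and TNFRSF10B is a textbook target of the stress factor CHOP, the product of DDIT3.

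Values are FPKM, fragments scaled to transcript length and to the library's total. Levels of different genes can be set side by side as far as the lengths used, which are not stated, are right. Library read totals were not among the sources used here. Relative to the deepest library, the depth estimated from the steps between low values was 0.769 to 0.865 in the GK921 libraries and 0.87 to 1 in the DMSO libraries, so low values were coarser after GK921. FPKM is relative to the fragments of each library, so fewer cells and less RNA per cell cannot be told apart from it. The labelled cell type was checked against 12 hepatocyte and hepatoma markers. Among the 4 that averaged over 1 FPKM were the keratin genes KRT8 and KRT18 and the hepatic transcription factor gene HNF4A, whereas the other 8 markers, ALB and AFP included, were below it, and GPC3 was listed at 0 in every library. Blood cell markers summed to between 5.61 and 8.5 FPKM after GK921 and between 1.52 and 5.23 FPKM in DMSO over 10 genes, and fibroblast markers to between 22.6 and 28.8 FPKM after GK921 and between 48.5 and 52.6 FPKM in DMSO over 8 genes, most of it from LUM. PDGFRA, CDH5 and CLDN5 were listed at 0 in every library, and 6 endothelial markers summed to between 6.42 and 8.07 FPKM after GK921 and between 5.42 and 5.95 FPKM in DMSO. The part of these markers in the results below was not tested.

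Of the 10 genes, 8 reached a mean of 1 FPKM over the 6 libraries and were tested with limma on log2(FPKM + 1), among 11573 tested genes. A gene is called higher or lower at a Benjamini-Hochberg adjusted p under 0.05. Called higher after GK921 were 6 of the 8 (TNFRSF10B, CFLAR, TNFRSF10C, CASP8, TNFRSF12A and TNFRSF1A), none was called lower, and TNFRSF10A and TNFRSF10D were not called. The background is wide, since 46.8% of all tested genes were called higher, 29.2% lower and 75.9% in either direction. The median log2 change was 0.47 over the 8 genes and 0.16 over all tested genes. As deposited, 5411 genes were called higher and 3378 lower, whereas median-ratio scaling, under which the median log2 change was 0.0070, gave 4267 higher and 4314 lower. Changes below are on the deposited scale, and subtracting 0.16 gives each one relative to the median gene.

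**Figure D1:**
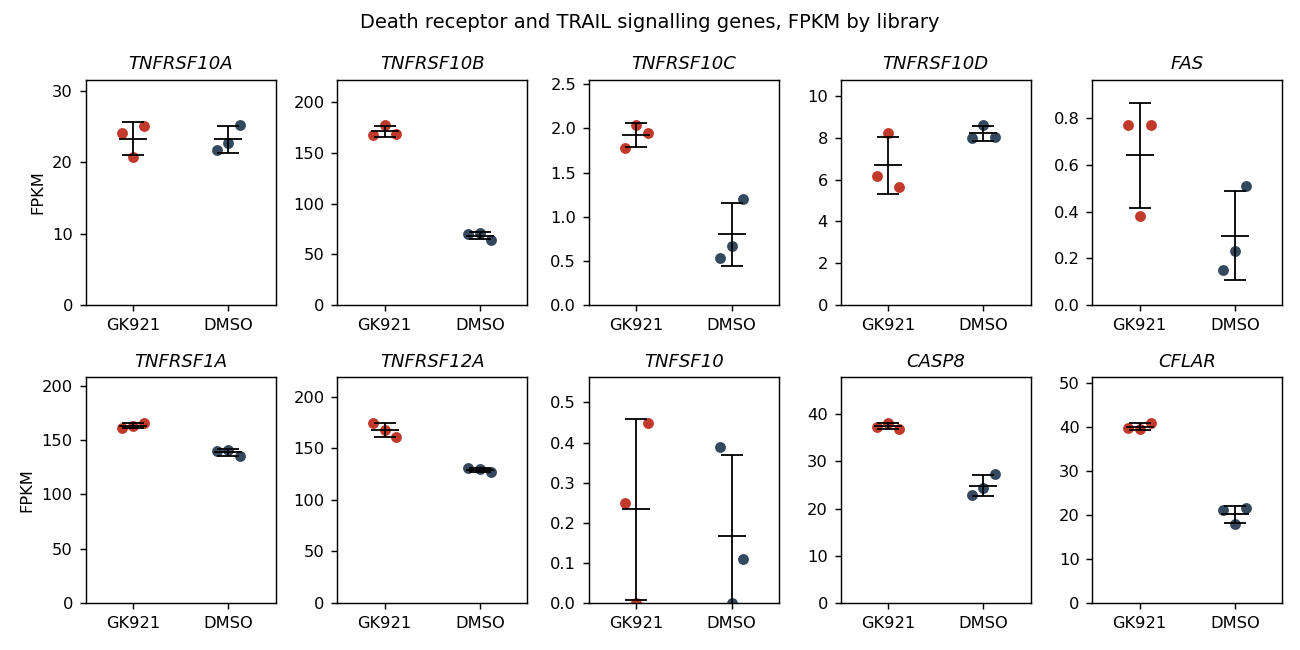
FPKM of the 10 genes in each library (y axis, linear from 0, scaled per gene), with GK921 libraries in red and DMSO libraries in dark blue; points are libraries in replicate order, the long mark is the mean and the bars are 1 SD (n = 3). TNFRSF10B lies between 168 and 178 FPKM after GK921 and between 64.4 and 71.4 FPKM in DMSO, while TNFRSF10A overlaps and FAS and TNFSF10 stay below 1 FPKM.

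TNFRSF10B had the largest log2 change of the 8 tested genes. TNFRSF10B had 167.66, 177.6 and 168.37 FPKM in the GK921 libraries, against 69.72, 71.43 and 64.36 FPKM in the DMSO libraries. All 3 GK921 values lay far above all 3 DMSO values. Its mean was 171 ± 5.55 FPKM after GK921 and 68.5 ± 3.69 FPKM in DMSO (SD, n = 3 libraries per group, as for each mean below), a ratio of 2.50. Its log2 change was 1.31 ± 0.047 (SE; 95% interval 1.20 to 1.42, limma adjusted p = 2.14e-08). Relative to the median gene it was 1.15. That change was larger than those of 94.8% of tested genes.

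TNFRSF10A, the gene of the other death-inducing TRAIL receptor, had 24.13, 20.73 and 25.05 FPKM after GK921 and 21.66, 22.68 and 25.25 FPKM in DMSO. The values of the groups were interleaved. Its log2 change was 0.0047 ± 0.085 (95% interval -0.19 to 0.20, limma adjusted p = 0.962). The sign of this near-zero value flipped with rescaling, to -0.16 with median ratios, without a call. Within each library the FPKM ratio of TNFRSF10B to TNFRSF10A was 6.95, 8.57 and 6.72 after GK921, against 3.22, 3.15 and 2.55 in DMSO. A single scaling factor per library leaves this ratio as it is, and its groups did not overlap. An exact two-sided permutation test gave p = 0.1, the smallest that 3 against 3 libraries can give.

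TNFRSF10C encodes a decoy that is anchored to the membrane by a lipid and lacks a death domain. It had 1.78, 2.04 and 1.95 FPKM after GK921 and 0.53, 0.67 and 1.2 FPKM in DMSO. All GK921 values were above all DMSO values, but the level stayed low. The mean was 1.92 ± 0.132 FPKM after GK921 and 0.80 ± 0.353 FPKM in DMSO. Its log2 change was 0.72 ± 0.17 (limma adjusted p = 0.00375), and it ranged from 0.26 with a pseudocount of 5 to 1.24 with one of 0.1.

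TNFRSF10D encodes the decoy with a truncated death domain. It had 6.16, 8.22 and 5.65 FPKM after GK921 and 7.97, 8.61 and 8.01 FPKM in DMSO. GK921 replicates 1 and 3 were below every DMSO library, and replicate 2 lay among them. The mean was 6.68 ± 1.36 FPKM after GK921 and 8.20 ± 0.359 FPKM in DMSO, with a log2 change of -0.27 ± 0.12 (95% interval -0.56 to 0.0072) that missed the threshold (limma adjusted p = 0.0706). Without the second GK921 library the log2 change was -0.41 and TNFRSF10D was called lower (limma adjusted p = 0.00449). It was also called lower when libraries were scaled by median ratios, upper quartiles or quantiles, at -0.42, -0.36 and -0.48 (limma adjusted p = 0.0129, 0.0272 and 0.00804).

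Summed over the 4 TRAIL receptor genes, FPKM was 199.73, 208.59 and 201.02 after GK921, against 99.88, 103.39 and 98.82 in DMSO. The sum was 2.02 times as high after GK921. TNFRSF10B made up 84.3% ± 0.752 of it after GK921 and 68.0% ± 2.52 in DMSO. TNFRSF10A made up 11.5% ± 1.36 after GK921 and 23.1% ± 2.16 in DMSO. The decoy genes TNFRSF10C and TNFRSF10D together held 3.98%, 4.92% and 3.78% after GK921, against 8.51%, 8.98% and 9.32% in DMSO. The lower decoy share went with the larger sum of the 4 genes. By mean, TNFRSF10C had 1.92 FPKM after GK921 and 0.80 FPKM in DMSO, and TNFRSF10D 6.68 and 8.20 FPKM. The share therefore does not show that decoy RNA fell by the same factor. The FPKM ratio of TNFRSF10B to TNFRSF10D was 26.2 ± 4.19 after GK921 and 8.36 ± 0.361 in DMSO, with no overlap. These shares are of RNA and say nothing of receptor protein at the cell surface.

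**Figure D2:**
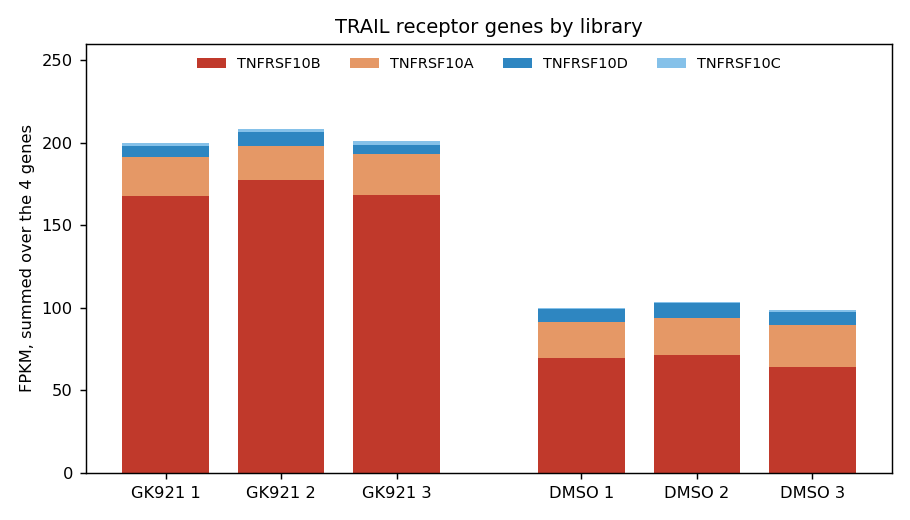
FPKM of the 4 TRAIL receptor genes stacked by library (y axis, linear from 0), GK921 libraries on the left and DMSO libraries on the right. The GK921 bars reach 200 to 209 FPKM and the DMSO bars 98.8 to 103 FPKM. Mean GK921 and DMSO levels were 171 and 68.5 FPKM for TNFRSF10B and 203 and 101 FPKM for the sum. The TNFRSF10B segment thus differs by about as much as the whole bar.

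The 4 TRAIL receptor genes lie within 205 kb of chromosome 8 (GENCODE release 29, GRCh38). TNFRSF10B runs from 23020133 to 23069179 on the minus strand, TNFRSF10C from 23102590 to 23117437 on the plus strand, TNFRSF10D from 23135588 to 23164030 on the minus strand and TNFRSF10A from 23190452 to 23225126 on the minus strand. Along the chromosome the called genes TNFRSF10B and TNFRSF10C are followed by TNFRSF10D and TNFRSF10A, which were not called. The genes are paralogs, and how reads matching several copies were counted is not stated, so small values such as those of TNFRSF10C are uncertain. TNFRSF10C also overlaps AC107959.4 and AC107959.5 on the same strand, and neither is among the listed gene symbols. How reads in such overlaps were counted is not stated either. TNFRSF10B overlaps RHOBTB2 on the opposite strand, which was listed at 4.08 to 5.43 FPKM after GK921 and 9.31 to 10.23 FPKM in DMSO, opposite in direction to TNFRSF10B.

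The other death domain receptors of the list differed widely in level. TNFRSF1A, the gene of the main tumour necrosis factor receptor, lies on chromosome 12 from 6328757 to 6342114. It had 161.01, 162.88 and 166.15 FPKM after GK921 and 140.12, 140.64 and 135.25 FPKM in DMSO. The groups were apart, and the difference was small: the ratio of means was 1.18 and the log2 change 0.23 ± 0.032 (limma adjusted p = 0.000128). It lay 0.077 above the median gene, and with median-ratio scaling TNFRSF1A was not called (0.069, limma adjusted p = 0.0760).

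FAS, the gene of the receptor for FAS ligand, lies on chromosome 10 from 88990582 to 89015785. It had 0.77, 0.38 and 0.77 FPKM after GK921 and 0.15, 0.23 and 0.51 FPKM in DMSO. The lowest GK921 library lay between DMSO libraries. At this level FAS was under the expression limit and was not tested with the rest. In a fit of all genes above 0 in any library, its log2 change was 0.34 ± 0.14 (limma adjusted p = 0.0759), and its exact permutation p was 0.2. FAS overlaps ACTA2 on the opposite strand, which stayed at or below 0.17 FPKM.

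TNFRSF12A encodes Fn14, a short receptor for the cytokine TWEAK that has no death domain and signals through TRAF proteins. It lies on chromosome 16 from 3018445 to 3022383. It had 174.91, 167.38 and 160.96 FPKM after GK921 and 130.71, 129.53 and 126.95 FPKM in DMSO. The groups did not overlap. The mean was 168 ± 6.98 FPKM after GK921 and 129 ± 1.92 FPKM in DMSO, with a log2 change of 0.37 ± 0.037 (limma adjusted p = 1.76e-05). Against the median gene the difference was 0.22. It was called higher in all 15 alternatives, at 0.21 with median-ratio scaling to 0.40 without GK921 replicate 3.

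The ligand gene TNFSF10, on chromosome 3 from 172505508 to 172523507, was listed near 0. It had 0.25, 0 and 0.45 FPKM after GK921 and 0.39, 0 and 0.11 FPKM in DMSO, and 1 library of each group was listed at 0. The groups overlapped fully, with an exact permutation p of 0.8, and in the fit without an expression limit its limma adjusted p was 0.722. At this depth no difference in TNFSF10 was detectable. RNF31, a gene that most cells use, was also listed near 0, so whether low values in this table are failed estimates was not tested. In both groups the receptors were therefore measured with their ligand gene near 0.

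Of the genes that act inside the receptor complex, CASP8 encodes the initiator caspase and CFLAR its inhibitor c-FLIP. Both lie on the plus strand of chromosome 2, CFLAR from 201116104 to 201176687 and CASP8 from 201233443 to 201287711. They are 56.8 kb apart, and genes lying between them were not looked for. CASP8 had 37.21, 38.22 and 36.93 FPKM after GK921 and 22.93, 24.44 and 27.26 FPKM in DMSO. CFLAR had 39.64, 39.6 and 40.99 FPKM after GK921 and 21.07, 17.94 and 21.49 FPKM in DMSO. Neither gene's groups overlapped, as was the case for 78% of all tested genes. CASP8 rose 1.51-fold by the ratio of means, with a log2 change of 0.57 ± 0.066 (limma adjusted p = 4.30e-05). CFLAR rose 1.99-fold, with a log2 change of 0.96 ± 0.071 (limma adjusted p = 2.32e-06). Relative to the median gene these changes were 0.42 for CASP8 and 0.80 for CFLAR, and both genes were called higher in all 15 alternatives.

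The balance of CFLAR and CASP8 RNA also differed. The FPKM ratio of CFLAR to CASP8 was 1.07, 1.04 and 1.11 after GK921, against 0.919, 0.734 and 0.788 in DMSO. In FPKM, CFLAR was thus above CASP8 in every GK921 library and below it in every DMSO library. Which gene is above the other depends on the gene lengths used for FPKM, which are not stated. The exact permutation p was 0.1, the smallest possible. Values are summed over transcripts, so the long and short forms of c-FLIP, which differ in their effect on caspase-8, are not separated. Several annotated transcripts overlap CFLAR, CFLAR-AS1 on the opposite strand among them, and no label or header says whether strand was used in counting.

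**Figure D3:**
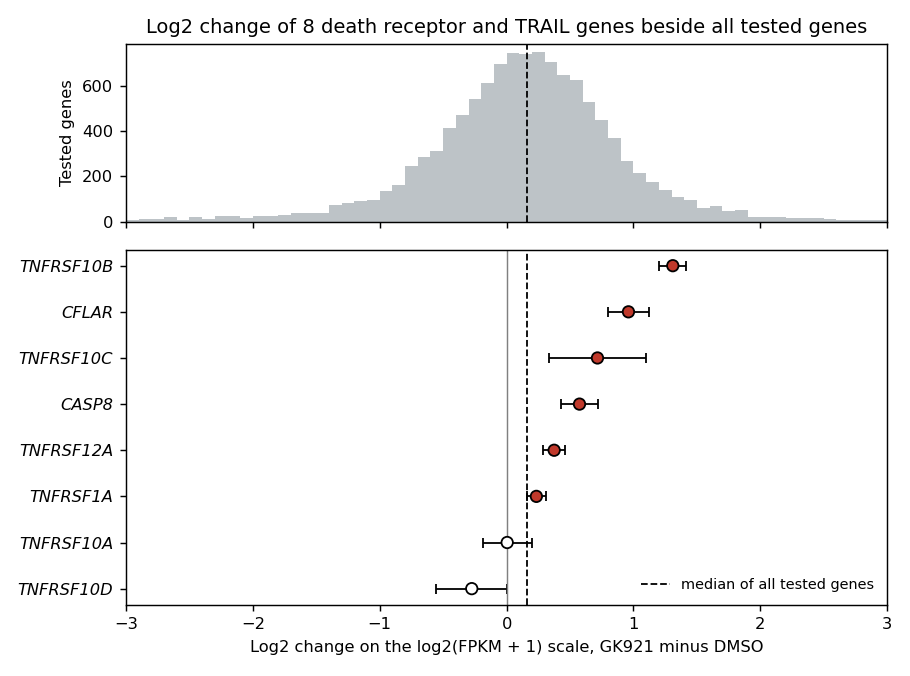
Top, histogram of the log2 changes of all 11573 tested genes between -3 and 3 (x axis, log2(FPKM + 1) scale, GK921 minus DMSO; y axis, number of genes), with 29 genes below and 27 above the axis. Bottom, the 8 tested genes with 95% limma intervals, filled where called higher and open where not called; the dashed line is the median of all tested genes at 0.16, and TNFRSF10B at 1.31 and CFLAR at 0.96 lie farthest to its right.

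The upstream sequences of CASP8 and TNFRSF1A are shown, since these are called genes whose window before the first start lies mostly outside annotated exons of the same gene. They come from RefSeq windows (GRCh38.p14), which were matched for 5 of the 10 genes. The windows cover 250 bases before an annotated start, here without the bases that GENCODE places in an exon. Capitals mark matches, on either strand, to TGANTCA (AP-1), TGATGNAAT (C/EBP-ATF composite element), GGGNNTTCC (a kappaB pattern), TGACGTCA (CRE), CACGTG (E-box) and GGGCGG (GC box).
CASP8, chr2:201233213-201233442, plus strand: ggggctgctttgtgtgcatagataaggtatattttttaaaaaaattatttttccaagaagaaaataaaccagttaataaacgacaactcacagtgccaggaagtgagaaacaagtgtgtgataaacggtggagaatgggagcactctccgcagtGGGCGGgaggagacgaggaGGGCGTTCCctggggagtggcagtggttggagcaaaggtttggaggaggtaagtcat
TNFRSF1A, chr12:6342115-6342326, minus strand: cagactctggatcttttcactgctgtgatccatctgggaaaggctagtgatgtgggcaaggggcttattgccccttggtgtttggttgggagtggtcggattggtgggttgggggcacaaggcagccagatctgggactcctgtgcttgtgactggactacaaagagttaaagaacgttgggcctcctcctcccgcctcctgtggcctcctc
The CASP8 sequence holds 1 GC box and 1 kappaB match, which were found in 42.6% and 5.78% of 35116 windows of 250 bases. The TNFRSF1A sequence holds no match to any of the 6 patterns, which says only that these letters are absent from this window. A match is a description of letters and shows no binding.

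By level, the order of the 10 genes changed at the top. After GK921 the means of TNFRSF10B, TNFRSF12A and TNFRSF1A were 171, 168 and 163 FPKM, and the ranges of neighbours in that order overlapped. In DMSO the order was TNFRSF1A at 139, TNFRSF12A at 129 and TNFRSF10B at 68.5 FPKM, with ranges that did not overlap. Next after GK921 came CFLAR at 40.1, CASP8 at 37.5 and TNFRSF10A at 23.3 FPKM, each apart from its neighbour. In DMSO CASP8 at 24.9 and TNFRSF10A at 23.2 FPKM overlapped, and CFLAR at 20.2 FPKM lay below both. TNFRSF10D, TNFRSF10C, FAS and TNFSF10 closed the order in both groups, and only the ranges of FAS and TNFSF10 overlapped there.

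Around these genes, 95 other genes of the pathway were listed by role, of which 82 were tested, 51 called higher and 14 lower, with a median log2 change of 0.36. All counts by role below stand against 46.8% of all tested genes called higher and 29.2% called lower. Among the other ligands, FASLG, TNF, LTA, LTB and TNFSF14 did not reach the expression limit. TNFSF15, a ligand of the receptor DR3, rose to 2.25 ± 0.562 FPKM after GK921, against 0.647 ± 0.216 FPKM in DMSO. Of 7 other receptors tested, 3 rose and 2 fell. TNFRSF11B, which encodes osteoprotegerin, a soluble decoy of RANKL that also binds TRAIL, fell to 0.813 ± 0.238 FPKM after GK921, against 4.88 ± 0.980 FPKM in DMSO (log2 change -1.69 ± 0.16, limma adjusted p = 1.37e-05). TNFRSF21, the gene of death receptor 6, fell to 79.0 ± 2.03 FPKM after GK921, against 121 ± 5.86 FPKM in DMSO. TNFRSF1B, the second tumour necrosis factor receptor gene, and TNFRSF14 rose 2.32-fold and 2.21-fold. TNFSF15 and TNFRSF11B reached the expression limit only through the group in which each was higher.

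Of 13 adaptor and TRAF genes tested, 8 rose and 1 fell, against 46.8% and 29.2% of all tested genes. TRAF1, an adaptor that NF-kappaB induces, rose to 16.2 ± 1.20 FPKM after GK921, against 2.26 ± 0.576 FPKM in DMSO (log2 change 2.42 ± 0.13, limma adjusted p = 3.32e-07). TRADD, which links TNFRSF1A to its kinase and ubiquitin ligase partners, rose 3.22-fold, and TRAF6 1.97-fold. FADD, the adaptor that joins TRAIL receptors and FAS to caspase-8, had 45.5 ± 6.11 FPKM after GK921 and 52.6 ± 1.13 FPKM in DMSO. Its call as lower was narrow (log2 change -0.21 ± 0.082, limma adjusted p = 0.0409) and was lost in limma fits without GK921 replicate 1 or 2 (adjusted p = 0.136 and 0.130) or without DMSO replicate 1, 2 or 3 (adjusted p = 0.102, 0.0674 and 0.0803), with no expression limit (0.0737) and with no intensity trend (0.0793). The log2 change of FADD was larger in size with median-ratio scaling (-0.38, limma adjusted p = 0.00236), upper-quartile scaling (-0.30, 0.00797), quantile scaling (-0.30, 0.0100) and without GK921 replicate 3 (-0.32, 0.000485). RIPK1 was at 17.2 ± 1.42 FPKM after GK921 and 15.6 ± 0.611 FPKM in DMSO and was not called, and RIPK3, the necroptosis kinase gene, stayed at or below 0.06 FPKM. RIPK1 and RIPK3 were chosen for mention after their values were seen, as were the other pathway genes named at or near 0 FPKM (RNF31, FASLG, TNF, LTA, LTB, TNFSF14 and GALNT14).

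Of 15 caspase and mitochondrial branch genes, 6 rose and 4 fell, and their median log2 change was 0.060, below that of all tested genes. CASP10, the initiator caspase gene beside CASP8, rose to 6.26 ± 0.426 FPKM after GK921, against 2.30 ± 0.119 FPKM in DMSO. CASP9, the initiator of the mitochondrial branch, rose 1.72-fold. BID, the caspase-8 substrate that carries the signal to mitochondria, fell to 37.5 ± 2.21 FPKM after GK921, against 53.7 ± 2.08 FPKM in DMSO (limma adjusted p = 3.01e-05). The executioner caspase gene CASP6 fell 1.68-fold, and PARP1, whose protein is a caspase substrate, 1.72-fold.

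Of 11 inhibitor genes tested, 7 were called higher and 2 lower, and both directions were also common among all tested genes (46.8% higher and 29.2% lower). BIRC3, an inhibitor of apoptosis gene that also carries NF-kappaB signals, rose to 54.5 ± 1.04 FPKM after GK921, against 14.7 ± 1.00 FPKM in DMSO (log2 change 1.83 ± 0.059, limma adjusted p = 1.21e-08). PEA15, whose death effector domain protein binds FADD and caspase-8, rose 2.46-fold, BIRC7 3.12-fold, and the caspase inhibitor gene XIAP 1.35-fold. BIRC5, which encodes survivin and is also a gene of cell division, fell 5.06-fold, and FAIM 1.46-fold. Of 11 ubiquitin enzyme genes tested, 7 rose and 2 fell. TNFAIP3 and CYLD, deubiquitinase genes that restrain receptor signalling, rose 2.23-fold and 1.62-fold. RBCK1, part of the linear ubiquitin ligase, rose 1.81-fold, and CUL3, whose ligase modifies caspase-8, fell 1.22-fold.

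All 13 tested transcription factor genes known to act at death receptor or TRAIL genes were called higher, with a median log2 change of 0.84. DDIT3, the gene of CHOP, had 1746 ± 36.8 FPKM after GK921 and 241 ± 2.82 FPKM in DMSO (log2 change 2.85 ± 0.025, limma adjusted p = 1.88e-11). ATF3 and ATF4, other factors of the stress response, rose 17.8-fold and 1.90-fold. IRF1, an interferon-response factor gene, rose 4.66-fold. Of 10 genes of receptor glycosylation, shedding and traffic tested, 6 rose and 3 fell. ADAM17, a protease that sheds TNF family proteins, rose 1.90-fold, and C1GALT1, which extends O-glycans, 1.69-fold, while its chaperone gene C1GALT1C1 fell 1.24-fold. GALNT14, whose enzyme is known to glycosylate TRAIL receptors, was listed at 0 in every library.

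**Figure D4:**
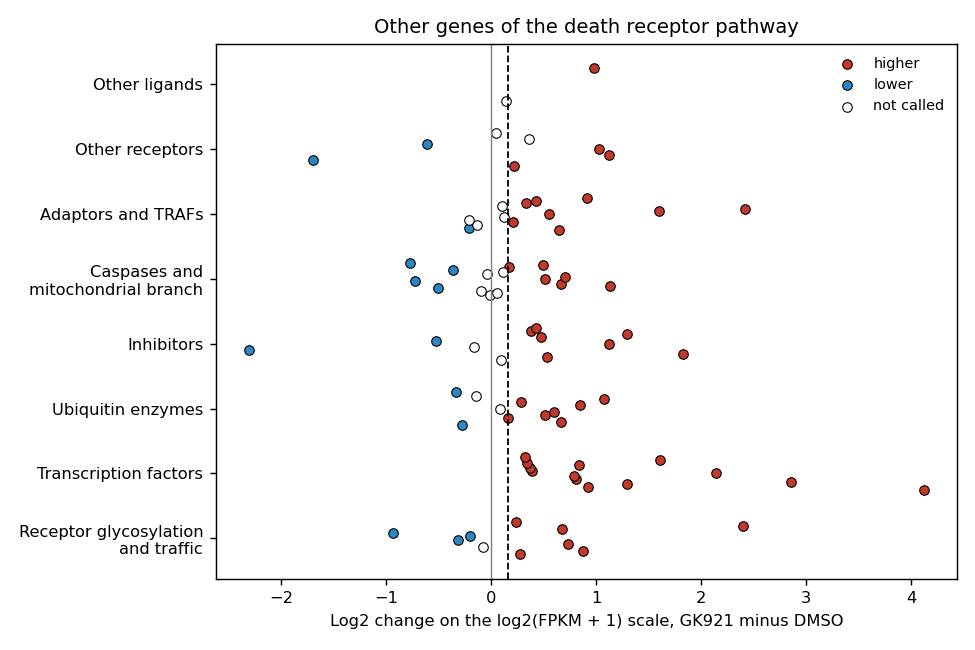
Log2 changes (x axis, log2(FPKM + 1) scale, GK921 minus DMSO) of 82 tested genes in 8 groups by role, red where called higher, blue where called lower and white where not called; the dashed line is the median of all tested genes at 0.16. The 13 transcription factor genes all lie to the right of that line, with ATF3 at 4.12, while caspase and mitochondrial branch genes lie on both sides.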

How the data were processed

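Per the labels' protocols, Trizol was used for RNA and standard Illumina methods for libraries. The build is hg38 and the tools are edgeR, featureCounts, HISAT2 and FastQC (0.11.5), per the submitters' processing notes, which give no role for each. Annotation, strand use and library totals were not stated. Values deposited by the authors were FPKM per gene symbol with 2 decimals, per the file headers, and were used unchanged. Tests used limma 3.58.1 (R 4.3.3) on log2(FPKM + 1) for genes averaging 1 FPKM or more, with treatment as the only term, an intensity trend and Benjamini-Hochberg adjustment over all tested genes. Log2 changes on this scale understate changes of low genes. Printed folds are ratios of mean FPKM. Relative depth was fitted to 15 pairs of libraries (largest residual 0.009 log2 units), taking each gene's length as the same in all libraries. Both procedures were checked on simulated data. No 2 libraries of a group shared more than 0.389% of their tested values exactly, so none was a copy of another. Each was counted as a replicate, although this check cannot show that the libraries came from separate cultures.

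The 10 genes and the lists were chosen with earlier results of these data known, and no test was run over a list. Named were all 10 genes and, from each list, up to 3 called genes of each direction by size of change, and the 3 genes closest in pattern to TNFRSF10B, with DDIT3, ATF4, ATF3, BIRC3 and XIAP in any case. The text uses part of these, and some genes the rule names are not reported here. Positions came from GENCODE release 29. Each library was left out in turn, and the pseudocount, expression limit, scaling (3 kinds), intensity trend and a replicate block were varied.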

Additional observations from a re-analysis of the deposited data

How the results depend on the processing

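TNFRSF10B, TNFRSF12A, CASP8 and CFLAR were called higher in all 15 alternatives, at log2 changes of 1.14 to 1.34, 0.21 to 0.40, 0.41 to 0.64 and 0.80 to 1.01, and TNFRSF10C in all 14 that could test it. TNFRSF1A lost its call with median-ratio scaling (0.069). TNFRSF10D, not called as deposited, was called lower with scaling by median ratios (-0.42), upper quartiles (-0.36) and quantiles (-0.48), with the replicate block (-0.27, limma adjusted p = 0.0468) and without the second GK921 library (-0.41), so 1 gene was then called lower in each of these 5 alternatives. Left-out libraries gave TNFRSF10D values of -0.41 to -0.18. TNFRSF10A, near 0, changed sign under the same 3 scalings (-0.16, -0.085 and -0.13), and ranged from -0.047 to 0.083 with a library left out, never called. The FAS log2 change was 0.95 when the pseudocount was 0.1 and 0.090 when it was 5. The count of higher ligands was 0 and that of lower receptors 1 with a mean of at least 5 FPKM. The count of lower adaptors was 0 with no filter or no trend, 3 with median-ratio and quantile scaling, 2 with upper-quartile scaling, and 0 to 2 with a library left out. The cause of these changes was not tested.

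Deviations of same-numbered libraries correlated at 0.031, 0.047 and -0.0021, so the numbers were not taken to pair libraries, and the third GK921 library correlated best with the first DMSO library. The replicate block gave 5351 higher and 3355 lower genes. No library total is known, so counting error could not be set apart from other spread.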

Other observations

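The genes whose pattern over the 6 libraries was closest to that of TNFRSF10B, by Euclidean distance of centred log2(FPKM + 1) values among 11572 tested genes, were DNAJB11, CCDC9 and MEF2D, at distances of 0.060, 0.070 and 0.078. DNAJB11, which encodes a co-chaperone of the endoplasmic reticulum, had 259 ± 9.63 FPKM after GK921 and 104 ± 5.18 FPKM in DMSO. CCDC9 had 42.6 ± 0.761 FPKM after GK921 and 16.9 ± 1.17 FPKM in DMSO, and MEF2D, a transcription factor gene, 77.8 ± 2.85 FPKM after GK921 and 30.1 ± 1.77 FPKM in DMSO.

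Scaled by relative depth, the low values of TNFSF10 were whole multiples of a common step within 0.023 of a step. The smallest whole numbers that gave the values were 2, 0 and 4 after GK921 and 4, 0 and 1 in DMSO. For FAS they were 8, 4 and 9 after GK921 and 2, 3 and 6 in DMSO, within 0.07 of a step. If 1 step is 1 fragment, which the files do not state, both genes rest on fewer than 10 fragments in each library.

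RNF31, a subunit of the linear ubiquitin ligase that most cell types use, stayed at or below 0.06 FPKM in every library.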
